A study of Rattus norvegicus with 26 samples.

Results

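The gubernaculum of ORL rats was compared with that of Long Evans (LE) rats at gestational day 19 (GD19). The members are the 12 arrays, of 26 in the series, whose titles give this organ, this age and a strain: 6 arrays of ORL and 6 of LE. ORL is a rat strain in which undescended testes (cryptorchidism) are inherited, and LE is the control strain. The labels name no treatment, transgene or deleted gene in either group. Each array held RNA from a pool of gubernacula collected by litter, so the replicates are litter pools and single fetuses are not resolved. Each strain had 3 arrays in hybridization batch 1 and 3 in batch 2. The remaining arrays are 12 from gestational day 17 (GD17; 7 ORL and 5 LE), which were set beside the GD19 values and shared in the estimate of the spread, and 2 GD19 arrays annotated with unknown strain, which entered no comparison.

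The gubernaculum is a cord of mesenchyme with a rim of striated muscle, the future cremaster, that anchors the fetal testis near the inguinal canal. Insulin-like hormone 3 from the testis, acting through its receptor Rxfp2, makes the cord swell early in descent, and androgens and the nerve supply of the cremaster are known to act in the later, inguinoscrotal phase. Muscle in the fetus is still being assembled at this stage: myoblasts fuse, embryonic myosins are made, and motor nerves contact fibres that carry the fetal acetylcholine receptor. RNA from such an organ comes from muscle, mesenchyme, vessels, nerves and blood together. Fewer cells of a type and less RNA per cell cannot be told apart in it.

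Values are log2 intensities per probe set, and the brightest probe set by its mean over arrays stands for a gene. The tests covered 15746 of 31099 probe sets, those above a floor of brightness, and 9610 genes, and the number of arrays limits the precision. Muscle genes were at high levels: skeletal actin, Acta1, stood between 14.54 and 15.11 on all 12 arrays. The probe sets of Rxfp2, Myf5 and Pax7 were not analysed here because none is assigned to a single gene, and Esr1, Insl3, Chrne and Hoxd11 stood at the floor of the scale on all 12 arrays. The first principal component of the 24 arrays with a strain held 36.4% of the variance. On it ORL replicate 4 lay at -21.4, while the other 5 ORL arrays lay between 17.5 and 35.7 and the LE arrays between 21.5 and 45.6. The GD17 arrays lay between -57.1 and -7.77, apart from LE GD17 replicate 4 at 23.3. ORL replicate 4 thus lay among the GD17 arrays and LE GD17 replicate 4 among the GD19 arrays. The reason was not tested. The 3′ minus 5′ difference of the Gapdh control probe sets was 0.14 ± 0.20 in LE and 0.14 ± 0.23 in ORL (mean ± SD, n = 6 each, exact permutation p = 0.985). That of actin was 0.80 ± 0.36 in LE and 1.09 ± 0.50 in ORL (exact permutation p = 0.288), higher in ORL by 0.25 in batch 1 and 0.33 in batch 2.

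One array measure did differ with strain. The slope of each array's values on the length of the gene in the genome (gene span) was -0.039 ± 0.097 log2 units per 10-fold span in LE and 0.118 ± 0.048 in ORL (mean ± SD, n = 6 each). It was higher in ORL by 0.157 (exact permutation test over 924 splits, two-sided, p = 0.00433, adjusted over 5 array measures p = 0.0216), and by 0.108 in batch 1 and 0.206 in batch 2. LE replicates 4 and 6, both of batch 2, had slopes of -0.157 and -0.156 and lay below the other 10 GD19 arrays. The median strain difference over genes ran from -0.10 in the fifth of genes with the shortest spans to 0.14 in the fifth with the longest, and the other way, from 0.14 to -0.12, at GD17. This measure moves with the strain, and its part in the results was not tested. Values with the slope as a covariate are given below, under which a difference that runs along with the slope is also reduced.

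**Figure D1:**
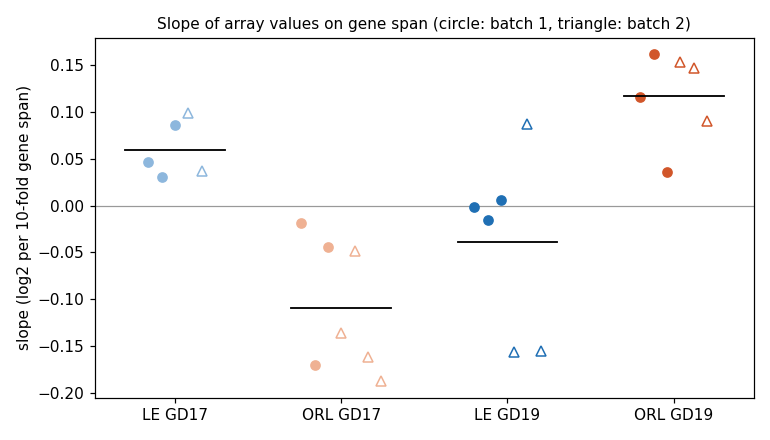
Slope of the log2 values of an array on gene span (log2 units per 10-fold span), for the 24 arrays of known strain. Points are arrays and lines are group means; circles are batch 1 and triangles batch 2. ORL lies above LE at GD19 (means 0.118 and -0.039), with 2 LE arrays near -0.16.

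In all, 1822 genes (19% of 9610) differed between the strains at GD19 by limma with Benjamini-Hochberg adjustment, 878 higher in ORL (9.14%) and 944 lower (9.82%). Differences of at least 2-fold were called for 131 genes (1.36%), 63 higher (0.656%) and 68 lower (0.708%). For 723 genes (7.52%) the 6 ORL arrays did not overlap the 6 LE arrays at all, with ORL higher in 325 (3.38%) and lower in 398 (4.14%). Of the called genes 289 were also called in the same direction at GD17, 153 higher (1.59%) and 136 lower (1.42%). These are 15.9% of the GD19 calls and 10.5% of the 2745 GD17 calls (28.6% of genes), and a further 331 (3.44%) were called in the opposite direction. The strain difference itself changed between the ages (interaction) for 2823 genes (29.4%), upward for 1210 (12.6%) and downward for 1613 (16.8%). With the span slope as a covariate 226 genes were called, of which 195 were called the same way without it. Under that covariate no interaction was called, while 941 of the 15746 probe sets had an unadjusted interaction p below 0.05. With no true difference 787 would be expected. By probe sets the GD19 count was 2890 (18.4%), against 370 in batch 1 alone, 910 in batch 2 alone and 1859 without LE replicate 6.

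Several of the largest differences were present at GD17 as well, with the arrays in separate ranges. Ano3, an anoctamin of the membrane, stood at 6.19, 6.55 and 7.07 in ORL (lowest, median and highest of 6 arrays, here and below) and at 2.161, 2.22 and 2.36 in LE, near the bottom of the scale. Its difference was 4.33 ± 0.15 (ORL minus LE, log2, ± SE of the limma fit, adjusted p = 1.44e-14), and with 4 taken for the dim LE group it was at least 5.93-fold higher in ORL. Zp2, a glycoprotein of the egg coat, stood at 5.86, 6.58 and 6.94 in ORL and at 2.38, 2.67 and 3.45 in LE, at least 5.71-fold higher. Pard6g, a scaffold of cell polarity complexes, stood at 8.79, 9.21 and 9.59 in ORL and at 5.12, 5.37 and 5.76 in LE (3.74 ± 0.17). In all 3 every ORL array lay above every LE array, and the differences were as large with the span covariate (4.26, 4.17 and 3.70). Each value rests on 1 tested probe set. Whether the probes match both strains equally was not tested, for these genes or for any other gene named here.

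Cntn3, a contactin of neural cell adhesion, ran the other way, at 2.47, 2.72 and 3.25 in ORL and 5.17, 5.51 and 6.36 in LE (-2.83 ± 0.21, adjusted p = 9.12e-09, at least 3.11-fold lower). At GD17 it had been further down (-4.06), and the change between ages was called (1.23, adjusted p = 0.0048). Pxmp4, a peroxisomal membrane protein, stood at 4.92, 5.09 and 5.67 in ORL and 7.58, 7.66 and 8.01 in LE (-2.48 ± 0.20), the same distance as at GD17 (-2.55). Ceruloplasmin, Cp, a ferroxidase that carries copper, stood at 2.45, 2.88 and 3.54 in ORL and 4.503, 4.91 and 5.57 in LE (-2.09 ± 0.25, at least 1.996-fold lower against the dim ORL group). None of the 3 overlapped between strains. Other probe sets of Pxmp4 and Cp, 1 each, were called in the same direction, while Cntn3 had 1 probe set in all.

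**Figure D2:**
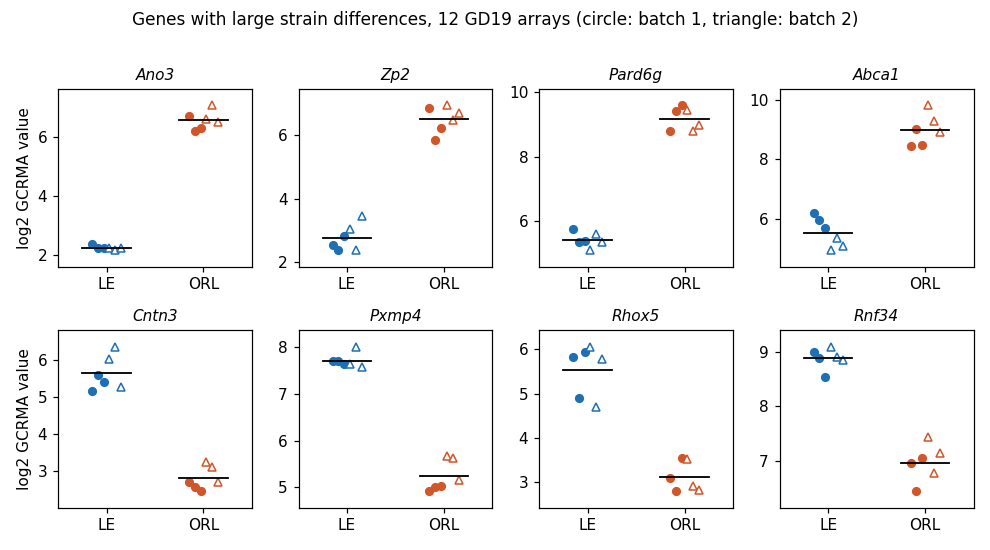
Log2 values of 8 genes with large strain differences on each of the 12 GD19 arrays (y axis, log2 GCRMA value; lines are group means; circles batch 1, triangles batch 2). In all 8 genes, Ano3, Zp2, Pard6g, Abca1, Cntn3, Pxmp4, Rhox5 and Rnf34, the LE and ORL arrays do not overlap.

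Smaller differences were called at both ages in several other genes. Naglu, a lysosomal enzyme that degrades heparan sulphate, stood at 8.13, 8.30 and 8.49 in ORL and 6.79, 6.93 and 7.16 in LE (1.35 ± 0.11, and 1.13 at GD17). Ttc19, needed to assemble respiratory complex III, was higher by 1.26 ± 0.11 (1.39 at GD17). Retsat, which saturates retinol, was higher by 1.13 ± 0.11 (1.24 at GD17), and Ppp1r3b, which brings a phosphatase to glycogen, by 1.07 ± 0.11. Rock2, a kinase that drives actomyosin contraction, stood at 8.57, 8.72 and 9.53 in ORL and 6.48, 7.08 and 7.18 in LE (1.94 ± 0.21, and 1.38 at GD17).

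On the lower side, the ubiquitin ligase Rnf34 stood at 6.45, 7.01 and 7.45 in ORL and 8.54, 8.89 and 9.09 in LE (-1.91 ± 0.15). Its deficit was larger than at GD17 (-1.12, interaction -0.79, adjusted p = 0.0091). Nit1, of the nitrilase family, was lower by -1.15 ± 0.09, the interferon-induced Ifi35 by -1.41 ± 0.16 and Tc2n, a protein with C2 domains, by -1.60 ± 0.18. The difference of Tc2n had also been smaller at GD17 (-0.62, interaction -0.98, adjusted p = 0.0097). For all 9 of these genes the strains did not overlap at GD19 (7.52% of all genes), and all 9 were still called with the span covariate. They were chosen for small p-values or large differences at GD19, so this gives no separate support.

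A further set of genes had a larger difference at GD19 than at GD17. Abca1, which exports cholesterol from cells, stood at 8.46, 8.98 and 9.82 in ORL and at 4.95, 5.51 and 6.21 in LE (3.47 ± 0.31, adjusted p = 2.17e-07). The gap was 1.81 at GD17, and the change between ages was called (1.66, adjusted p = 0.011). Of 2 other probe sets of Abca1, 1 was called in the same direction. Kif26b, a kinesin-like protein of mesenchyme, stood at 8.83, 9.35 and 9.42 in ORL and 6.38, 7.92 and 8.14 in LE (1.72 ± 0.27, against -0.06 at GD17). Sostdc1, a secreted antagonist of BMP and Wnt signals, stood at 10.56, 10.89 and 11.48 in ORL and 9.04, 9.38 and 9.67 in LE (1.55 ± 0.21, against 0.32 at GD17). The strains did not overlap in any of the 3.

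Col25a1, a membrane collagen of muscle that motor axons need to enter it, was higher in ORL by 0.99 ± 0.10 (adjusted p = 1.07e-06). Its arrays stood at 10.06, 10.20 and 10.72 in ORL and 9.14, 9.25 and 9.55 in LE, while the difference at GD17 was -0.04 (interaction 1.04, adjusted p = 0.00029). The collagen-binding integrin Itga1 (1.53 ± 0.29) and the complement-activating protease Masp1 (1.52 ± 0.22) were also higher, with GD17 differences of -0.04 and 0.023 and called interactions. With the span covariate Abca1, Sostdc1, Col25a1 and Masp1 were still called (3.10, 1.59, 0.78 and 0.99), and Kif26b and Itga1 were not (1.09, adjusted p = 0.073, and 1.40, adjusted p = 0.070).

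Among genes lower in ORL chiefly at GD19, the X-linked homeobox gene Rhox5, known to respond to androgen in the male reproductive tract, stood at 2.80, 2.998 and 3.54 in ORL and at 4.69, 5.80 and 6.06 in LE (-2.42 ± 0.24, adjusted p = 9.69e-07). It was at least 2.89-fold lower, against -0.98 at GD17 (interaction -1.44, adjusted p = 0.0055). The pancreatic-type elastase Cela3b stood at 3.97, 4.23 and 4.75 in ORL and 5.50, 6.32 and 7.14 in LE (-2.02 ± 0.30). Neurotensin, Nts, was lower by -1.86 ± 0.35, at least 1.42-fold against the dim ORL group, though its interaction (-1.41, adjusted p = 0.043) was lost without any 1 of 18 of the 24 arrays. Sprr1a, a protein of the cornified layer of epithelium, was lower by -2.67 ± 0.52. Its arrays overlapped, at 2.19, 4.78 and 5.15 in ORL and 4.66, 7.05 and 8.72 in LE, and with the span covariate it was not called (-1.41, adjusted p = 0.26).

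**Figure D3:**
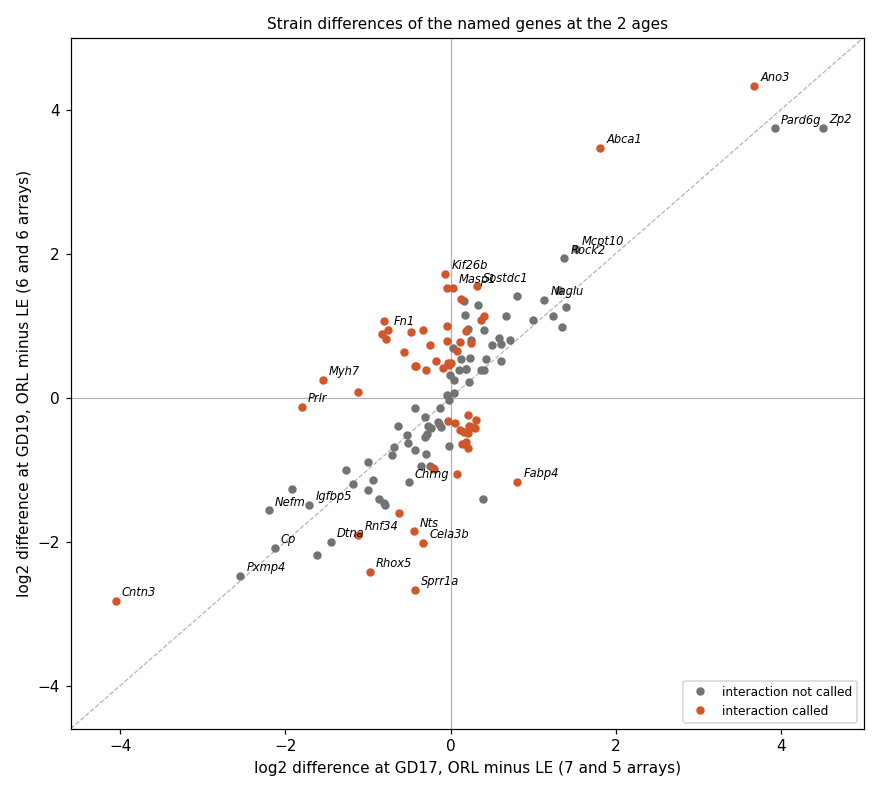
Strain differences of the genes named in the text (ORL minus LE, log2) at GD19 (y axis, 6 and 6 arrays) against GD17 (x axis, 7 and 5 arrays). The dashed line marks equal differences; orange points are genes with a called interaction. Pard6g, Pxmp4 and Cp lie near that line, while Kif26b, Masp1 and Sostdc1 lie above it and Cela3b, Sprr1a and Fabp4 below it.

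Genes of the neuromuscular junction and of excitation-contraction coupling were lower in ORL. Of 32 tested members of that list 17 were lower (53.1%, against 9.82% of all genes), 2 were higher and 13 did not pass, and the median was -0.53, against -0.007 over all genes. A further 5 of its members, Chrne, Musk, Scn4a, Clcn1 and Dmd, were below 4 on all 12 arrays. The mean level over the list did not overlap between the strains, at 7.88, 8.34 and 8.45 in ORL and 8.51, 8.68 and 9.24 in LE. The median was -0.23 in batch 1 and -0.75 in batch 2. At GD17 the list was also lower in ORL, with a median of -0.36. The 2 LE arrays with the lowest span slopes, replicates 4 and 6, were also the highest of the list (8.96 and 9.24): without both the median was -0.32, with 4 lower and 1 higher member. Without any 1 of LE replicates 4 and 6 and ORL replicates 1 and 4, 10 members were lower. With the span covariate the median was -0.42, with 2 members called lower and 0 higher.

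The acetylcholine receptor of fetal muscle is a ring of Chrna1, Chrnb1, Chrnd and Chrng subunits, in which Chrne later replaces Chrng. Chrna1, the subunit that binds the transmitter, stood at 9.17, 9.30 and 9.72 in ORL and 9.89, 10.15 and 10.35 in LE. Its difference was -0.79 ± 0.13 (adjusted p = 0.000268), it was -0.71 at GD17, and it kept its call with the span covariate (-0.81, adjusted p = 0.013). Chrng, the fetal subunit, stood at 6.91, 7.60 and 8.08 in ORL and 8.26, 8.74 and 9.40 in LE (-1.18 ± 0.22, adjusted p = 0.00107). Chrnd stood at 8.27, 8.74 and 8.89 in ORL and 9.28, 9.33 and 9.67 in LE (-0.73 ± 0.19, adjusted p = 0.0102). In these 3 subunits every ORL array lay below every LE array.

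Chrnb1 did not pass (-0.36 ± 0.14, adjusted p = 0.080). It stood at 6.57, 6.62 and 6.72 in ORL and 6.57, 7.02 and 7.52 in LE, so the groups overlapped, and 2 of the 12 arrays shared its lowest value. Chrng and Chrnd were not called with the span covariate (-0.86, adjusted p = 0.13, and -0.59, adjusted p = 0.28). The batch differences were -0.88 and -0.70 for Chrna1, -0.99 and -1.37 for Chrng, and -0.56 and -0.91 for Chrnd, all of the same sign.

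**Figure D4:**
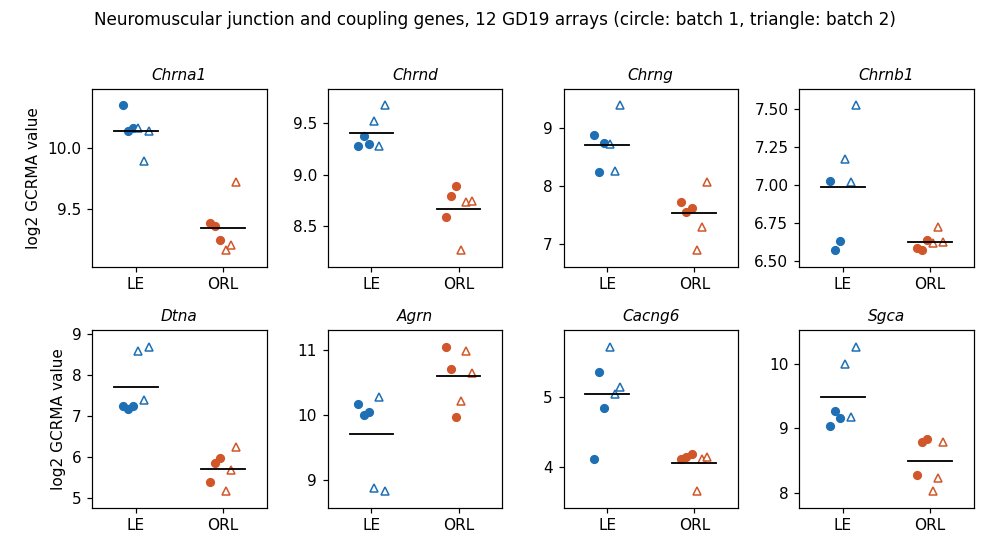
Log2 values of acetylcholine receptor subunits and other junction and coupling genes on each of the 12 GD19 arrays (y axis, log2 GCRMA value; lines are group means; circles batch 1, triangles batch 2). Chrna1, Chrnd, Chrng, Dtna and Sgca do not overlap between the strains, whereas Chrnb1, Agrn and Cacng6 do.

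The start regions of the 3 called subunit genes are shown because myogenic factors such as Myod1 and Myog bind E-boxes (CANNTG) in the promoters of muscle receptor genes. Each line gives the 250 bases before the RefSeq start in the GRCr8 assembly, read 5′ to 3′ on the strand of the gene, with E-boxes in capitals.

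Chrna1, chr3:78877354-78877603, minus strand: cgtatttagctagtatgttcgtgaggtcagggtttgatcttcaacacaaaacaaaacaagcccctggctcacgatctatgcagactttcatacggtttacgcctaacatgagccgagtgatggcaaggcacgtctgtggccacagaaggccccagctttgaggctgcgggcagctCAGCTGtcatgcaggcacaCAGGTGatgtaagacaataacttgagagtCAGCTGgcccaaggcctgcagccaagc
Chrnd, chr9:95310066-95310315, plus strand: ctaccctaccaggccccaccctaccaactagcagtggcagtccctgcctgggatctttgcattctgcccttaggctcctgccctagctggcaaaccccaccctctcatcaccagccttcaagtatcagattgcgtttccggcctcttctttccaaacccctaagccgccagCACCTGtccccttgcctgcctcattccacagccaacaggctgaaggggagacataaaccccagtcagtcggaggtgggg
Chrng, chr9:95325734-95325983, plus strand: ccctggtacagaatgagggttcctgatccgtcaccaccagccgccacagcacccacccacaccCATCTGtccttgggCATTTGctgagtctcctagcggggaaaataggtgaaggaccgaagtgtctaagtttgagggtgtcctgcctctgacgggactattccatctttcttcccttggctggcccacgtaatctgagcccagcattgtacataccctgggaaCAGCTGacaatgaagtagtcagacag

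The window held 3 E-boxes in Chrna1, 1 in Chrnd and 3 in Chrng. Chrnb1, which was not called, also held 3, and Chrne, at the floor of the scale, held 1. The pattern reads the same on both strands. Of 27457 RefSeq promoters of this length 65.2% held at least 1, 30.1% at least 2 and 11% at least 3. Promoters were found for 23 tested members of the list, lower or not, and 9 of these held at least 2. They include 11 of the 17 lower members, of which all 11 held at least 1 and 7 held at least 2. Whether lower members hold more E-boxes than the others was not tested. These matches describe letters and not binding.

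Around the receptor, alpha-dystrobrevin, Dtna, a postsynaptic scaffold that keeps receptors in place, stood at 5.17, 5.76 and 6.24 in ORL and 7.16, 7.32 and 8.69 in LE (-2.001 ± 0.30, adjusted p = 0.000152). A second probe set of Dtna was called in the opposite direction, so the value holds for the transcripts of the brighter one. Alpha-sarcoglycan, Sgca, of the dystrophin complex, stood at 8.03, 8.53 and 8.84 in ORL and 9.04, 9.23 and 10.27 in LE (-0.99 ± 0.23). The calcium channel subunit Cacng6 was lower by -0.97 ± 0.17, with overlapping arrays. Dtna kept its call with the span covariate (-1.42, adjusted p = 0.047), and Sgca and Cacng6 did not (adjusted p = 0.36 and 0.073).

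Both members that were higher encode broadly expressed proteins. Agrin, Agrn, a proteoglycan that clusters receptors when released by the nerve and is also made by other tissues, was higher by 0.89 ± 0.26 (adjusted p = 0.0206), with LE replicates 4 and 6 at 8.88 and 8.84 and the other 4 LE arrays at 9.997 to 10.28. With the span covariate its difference was 0.004 (adjusted p = 0.997), and it was not called without LE replicate 4 (0.75), LE replicate 6 (0.74) or ORL replicate 5 (0.78). Asph, from which the junctional protein junctin and a hydroxylase are both made, was higher by 0.73 ± 0.15 and lay at 0.25 with the span covariate. Agrn was named after its values were seen.

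Of 48 tested sarcomere genes 9 were lower (18.8%, against 9.82% of all genes), 39 did not pass and 0 were higher, with a median of -0.27. At GD17 the median of this list was further below 0, at -0.56. Tmod4, which caps thin filaments, stood at 7.42, 8.27 and 8.60 in ORL and 8.80, 9.18 and 10.35 in LE (-1.28 ± 0.27). Lmod3, which nucleates actin filaments, stood at 5.53, 6.42 and 6.73 in ORL and 7.07, 7.16 and 7.57 in LE (-1.002 ± 0.27, and -1.26 at GD17), so that neither gene overlapped. The stretch-sensing LIM protein Csrp3 (-0.67 ± 0.18) and Smpx, a small muscle protein (-0.69 ± 0.19), were lower with overlapping arrays. The list had a similar median with the span covariate (-0.34), under which 0 members were called by limma and 8 had an unadjusted p below 0.05. The share of all genes at that unadjusted threshold was not counted. Such counts of list members, here and below, therefore show neither an excess nor a lack. In batch 1 alone 0 were called and in batch 2 alone 2. It had 4 lower members without any 1 of LE replicates 4 and 6 and ORL replicate 4, and 14 without LE GD17 replicate 4.

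Of the proteins of the filaments, 2 myosin light chains were called lower. Myl4, the chain of embryonic muscle, stood at 12.55, 13.01 and 13.09 in ORL and 13.15, 13.35 and 13.58 in LE (-0.41 ± 0.14, adjusted p = 0.0484). It was named after its values were seen, and its call was lost without any 1 of LE replicates 1, 2, 3, 4 and 6 and ORL replicates 1, 4, 5 and 6, and without any 1 of most ORL arrays of GD17. Myl3, the chain of slow muscle, was lower by -0.68 ± 0.21 with overlapping arrays, and was not called without any 1 of LE replicates 4 and 6 and ORL replicates 1, 4 and 5. Neither was called with the span covariate (Myl4 -0.35, Myl3 -0.36).

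Skeletal actin and 2 myosin heavy chains did not pass at GD19. Acta1 stood at 14.54, 14.83 and 14.92 in ORL and 14.85, 14.89 and 15.11 in LE (-0.15 ± 0.10, adjusted p = 0.317). Embryonic myosin, Myh3, stood at 14.43, 14.72 and 14.84 in ORL and 14.30, 14.63 and 14.76 in LE (0.083 ± 0.17, adjusted p = 0.773). Slow myosin, Myh7, stood at 11.19, 11.63 and 11.97 in ORL and 10.66, 11.45 and 11.77 in LE (0.25 ± 0.23, adjusted p = 0.495). Both myosins had been lower in ORL at GD17 (-1.13 and -1.55), and their differences changed between the ages (1.21, adjusted p = 0.0015, and 1.80, adjusted p = 0.0011). The GD19 values of Myh3 and Myh7 turned to -0.28 and -0.30 with the span covariate, not called.

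Regulators of myogenesis were also lower, 9 of 26 tested (34.6%, against 9.82% of all genes) with 1 higher and a median of -0.25. Their median at GD17 was similar, at -0.29. The mean level of the list stood at 8.86, 9.03 and 9.14 in ORL and 9.28, 9.41 and 9.47 in LE, without overlap, and the median was -0.24 in batch 1, -0.33 in batch 2 and -0.33 with the span covariate. The count of lower members was 1 in batch 1, 5 in batch 2 and 2 with the span covariate. Vgll2, a cofactor of muscle transcription, stood at 4.13, 5.15 and 5.34 in ORL and 6.03, 6.34 and 7.24 in LE (-1.49 ± 0.25). Mymk, the membrane protein that lets myoblasts fuse, stood at 10.74, 10.92 and 11.21 in ORL and 11.24, 11.45 and 11.91 in LE (-0.54 ± 0.14, adjusted p = 0.0104). The methyltransferase Smyd1 was lower by -0.79 ± 0.15. The strains did not overlap in Vgll2 and Mymk and did in Smyd1.

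Myog, the factor of myoblast differentiation, stood at 12.13, 12.39 and 12.54 in ORL and 12.58, 12.69 and 12.91 in LE (-0.33 ± 0.11, adjusted p = 0.0363). Its call was lost without any 1 of LE replicates 1, 3 and 6 and ORL replicates 1, 3, 4 and 5 (closest to 0 at -0.28). Myod1, the determination factor, stood at 10.17, 10.28 and 10.35 in ORL and 10.48, 10.54 and 10.62 in LE, also without overlap, and did not pass (-0.27 ± 0.12, adjusted p = 0.110). The homeobox cofactor Eya1 was the single higher member (0.38 ± 0.10, and 0.40 at GD17). Igfbp5, a binding protein of insulin-like growth factors made in muscle, stood at 11.32, 12.63 and 13.17 in ORL and 13.40, 14.07 and 14.15 in LE (-1.49 ± 0.28). Of its 4 other probe sets 2 were called in the opposite direction, and the mean over its probe sets was 0.40, so no direction can be given for the gene.

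Among genes of fibre type and muscle metabolism 10 of 23 were lower (43.5%, against 9.82% of all genes) and 0 higher. The median was -0.41, and -0.32 at GD17. With the span covariate the median was -0.30 and 0 were called by limma (2 at an unadjusted p below 0.05), and 0 were called in batch 1 alone and 2 in batch 2 alone. The muscle phosphoglycerate mutase Pgam2 stood at 11.33, 11.81 and 11.98 in ORL and 12.07, 12.39 and 13.55 in LE (-0.96 ± 0.21, -0.43 in batch 1 and -1.49 in batch 2). These counts leaned on LE replicates 4 and 6: without replicate 4, 3 genes were lower, without replicate 6, 2, and without both, 0. Without any 1 of ORL replicates 1, 4 and 5, 3 were lower. The lists of coupling, sarcomere, fibre type and regulators share members and are not independent results. In each of these lists ORL replicate 4, which lay among the GD17 arrays on the first principal component, had the lowest mean level. Without it and LE GD17 replicate 4 the medians were -0.43 (coupling), -0.19 (sarcomere), -0.33 (fibre type) and -0.235 (regulators).

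Factors of limb and trunk patterning were higher in 8 of 28 tested cases (28.6%, against 9.14% of all genes) and lower in 2, with a median of 0.24. Tbx18, a T-box factor of mesenchyme, stood at 7.35, 7.81 and 8.45 in ORL and 6.35, 6.77 and 6.998 in LE (1.08 ± 0.15, adjusted p = 4.66e-05, against 0.36 at GD17). Twist1, which holds mesenchyme in an undifferentiated state, stood at 9.79, 10.09 and 10.56 in ORL and 8.94, 9.44 and 9.61 in LE (0.74 ± 0.15). The paired-type factor Prrx2 (0.51 ± 0.14) and the Hox cofactor Pbx3 (0.39 ± 0.08) were higher as well. None of these 4 genes overlapped between strains.

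Of the Hox genes of the posterior trunk, Hoxa9 was higher (0.38 ± 0.10, adjusted p = 0.0138, and 0.37 at GD17). Hoxa10, whose loss causes cryptorchidism in mice, stood at 11.08, 11.31 and 11.45 in ORL and 10.78, 11.12 and 11.20 in LE and did not pass (0.21 ± 0.08, adjusted p = 0.0769). The differences of Hoxa11 (0.037), Hoxd9 (-0.14) and Hoxd10 (0.067) did not pass either, with adjusted p between 0.29 and 0.83. Lower in ORL were Alx1, a paired-type factor of mesenchyme (-1.21 ± 0.20, 6.62, 6.84 and 7.27 in ORL against 7.95, 8.12 and 8.29 in LE, and -1.18 at GD17), and the LIM factor Isl1 (-0.43 ± 0.13). Isl1 was not called without any 1 of LE replicate 2 and ORL replicates 1, 4, 5 and 6. Tbx18, Alx1 and Prrx2 were still called with the span covariate (0.92, -1.17 and 0.73), and the list median was 0.10. Without LE replicate 4, 5 members were higher.

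Wnt ligands, receptors and antagonists were higher in ORL in 13 of 40 tested cases (32.5%, against 9.14% of all genes). They were lower in 1, and the median was 0.18. Wnt4, a ligand of urogenital mesenchyme, stood at 10.91, 11.29 and 11.88 in ORL and 9.67, 10.55 and 10.74 in LE (0.94 ± 0.22, against -0.34 at GD17, interaction 1.28, adjusted p = 0.0064). Wnt5a, a ligand of the non-canonical branch, did not pass (0.54 ± 0.23, adjusted p = 0.107, with 0.029 in batch 1 and 1.06 in batch 2). Of the receptors, Fzd1 stood at 11.03, 11.11 and 11.42 in ORL and 10.18, 10.56 and 10.77 in LE (0.64 ± 0.09, adjusted p = 0.00011), and Fzd4 was higher by 0.48 ± 0.11. Fzd8 was the lower member (-0.51 ± 0.12). At GD17 Fzd1 differed by 0.073, and the change between ages was called for Fzd1 (0.57) and for Fzd4 (0.48).

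The secreted antagonist Sfrp1 stood at 8.90, 9.36 and 9.90 in ORL and 6.32, 8.39 and 9.07 in LE (1.36 ± 0.28). Its lowest LE arrays were replicates 4 and 6, at 6.32 and 7.22. With the span covariate its difference was 0.62 (adjusted p = 0.37), and another probe set of Sfrp1 was not called. Fzd1 kept its call with the covariate (0.53, adjusted p = 0.021), while Wnt4 (0.60, adjusted p = 0.35) and Fzd4 (0.40, adjusted p = 0.18) did not. Wnt4 was also not called without LE replicates 4 and 6 together. The list median was 0.07 with the covariate and 0.15 without those 2 arrays.

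In the BMP and TGF-beta families 8 of 43 tested genes were higher (18.6%, against 9.14% of all genes). There were 2 lower (4.65%, against 9.82%), and the median was 0.24. Inhba, a subunit of activin, stood at 7.37, 7.61 and 8.40 in ORL and 5.70, 6.26 and 6.98 in LE (1.41 ± 0.20, and 0.80 at GD17). The ligand Bmp4 stood at 9.90, 10.04 and 10.35 in ORL and 9.06, 9.37 and 9.43 in LE (0.80 ± 0.16, and 0.72 at GD17). Smad7, an inhibitory mediator induced by these ligands, stood at 8.28, 8.49 and 8.82 in ORL and 7.49, 7.69 and 8.20 in LE (0.75 ± 0.13, and 0.61 at GD17). In Inhba, Bmp4 and Smad7 the strains did not overlap, and all 3 kept their calls with the span covariate (1.38, 1.08 and 0.88).

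Smad9, a BMP mediator, was higher by 0.95 ± 0.21, at 4.38, 4.72 and 4.85 in ORL and 3.45, 3.65 and 4.14 in LE. Most LE arrays lie below 4 there, so the size of the difference is uncertain. Lower were the decoy receptor Bambi (-0.39 ± 0.10, without overlap) and the activin receptor Acvr2a (-0.36 ± 0.10, with overlap), which was named after its values were seen. Bmp3 did not pass (0.31 ± 0.22, adjusted p = 0.356), at -0.06 in batch 1 and 0.68 in batch 2. The list median fell to 0.04 with the span covariate.

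Of 21 genes of hedgehog, retinoic acid and Notch signalling 4 were higher (19%, against 9.14% of all genes). The median was 0.11, with 0 lower. Gli2, the activating factor of hedgehog signals, stood at 8.50, 8.66 and 8.94 in ORL and 7.66, 8.08 and 8.39 in LE (0.63 ± 0.12). It had been lower in ORL at GD17 (-0.56), and the change was called (1.19, adjusted p = 0.00037). The retinoic acid binding protein Crabp1 (0.98 ± 0.22), the hedgehog co-receptor Boc (0.41 ± 0.09) and the retinoic acid receptor Rarb (0.40 ± 0.12) overlapped between strains. Rarb was not called without LE replicate 6 (0.34) or ORL replicate 4 (0.34). None of the 4 was called with the span covariate.

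Growth factor and neurotrophin genes were higher in 7 of 35 cases (20%, against 9.14% of all genes) and lower in 2 (5.71%, against 9.82%). Their median of 0.08 turned to -0.0052 and -0.048 within the batches and to -0.032 with the span covariate. The 2 counted as lower are Ramp1 and the probe set that stands for Igfbp5, a gene whose probe sets disagree in direction. Igf1, the growth factor of muscle and mesenchyme, stood at 13.61, 13.77 and 14.05 in ORL and 13.09, 13.32 and 13.54 in LE (0.51 ± 0.09, against -0.17 at GD17), and its 2 other probe sets were called in the same direction. The receptor Fgfr2 stood at 8.26, 8.73 and 9.29 in ORL and 7.48, 7.80 and 8.06 in LE (0.93 ± 0.17). The neurotrophin receptor Ntrk2 was higher by 0.91 ± 0.20, against -0.47 at GD17. Ramp1, a part of the receptor for calcitonin gene-related peptide, which sensory nerves release onto the gubernaculum, stood at 9.31, 9.98 and 10.25 in ORL and 10.48, 10.72 and 11.53 in LE (-0.96 ± 0.23). None of Igf1, Fgfr2, Ntrk2 and Ramp1 was called with the span covariate (0.36, 0.72, 0.42 and -0.59). Without LE GD17 replicate 4, 5 members were lower.

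Of 18 tested hormone receptors and steroid enzymes 1 was higher (5.56%) and 2 lower (11.1%), near the shares over all genes, and the median was 0.02. The glucocorticoid receptor Nr3c1 stood at 8.55, 8.60 and 8.86 in ORL and 8.26, 8.43 and 8.52 in LE (0.24 ± 0.07, adjusted p = 0.0135). The growth hormone receptor Ghr was lower by -0.63 ± 0.14 without overlap, and the mitochondrial dehydrogenase Hsd17b10 by -0.31 ± 0.09. Hsd17b10 was not called without LE replicate 6 (-0.26) or ORL replicate 5 (-0.26). The prolactin receptor Prlr stood at 5.49, 5.88 and 6.65 in ORL and 5.46, 5.88 and 6.93 in LE (-0.13 ± 0.29, adjusted p = 0.807), whereas at GD17 it had been lower in ORL (-1.80, interaction 1.68, adjusted p = 0.0067).

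Among 24 genes known to respond to androgen or glucocorticoid 4 were higher (16.7%, against 9.14% of all genes) and 2 lower (8.33%, against 9.82%). The median was -0.06. The higher ones were Inhba, Igf1, Angptl4, an inhibitor of lipoprotein lipase (1.29 ± 0.26), and Ccn2, a matrix protein also known as connective tissue growth factor (0.82 ± 0.22). The lower ones were Rhox5, described above, and the lipocalin Lcn2 (-1.41 ± 0.49, adjusted p = 0.0485), whose call was lost when any 1 of 17 of the 24 arrays was left out. Fkbp5, a chaperone partner induced by glucocorticoid, stood at 8.44, 8.68 and 8.76 in ORL and 8.55, 8.68 and 8.86 in LE (-0.027 ± 0.09, adjusted p = 0.865).

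Cholesterol genes moved in both directions. Of 29 tested 5 were higher (17.2%, against 9.14% of all genes) and 6 lower (20.7%, against 9.82%), and the median was -0.07. The higher ones included Abca1, the other exporter Abcg1 (1.15 ± 0.29, named after its values were seen) and the lysosomal carrier Npc2, which stood at 12.87, 13.07 and 13.19 in ORL and 12.34, 12.52 and 12.68 in LE (0.54 ± 0.09). The desaturase Scd2 and mevalonate kinase, Mvk, were the other higher members. The lower ones were Insig1, Cyp51, Sqle and 3 enzymes of the mevalonate pathway. Scd2, Mvk, Cyp51 and Sqle are listed after their values were seen. Mvd stood at 6.03, 6.22 and 6.48 in ORL and 6.72, 6.81 and 7.16 in LE (-0.64 ± 0.11), Fdps was lower by -0.48 ± 0.09 and Idi1 by -0.62 ± 0.15, all 3 without overlap.

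Insig1, the sterol-regulated brake on that pathway, was lower by -0.43 ± 0.11. At GD17 the same 4 lay between 0.14 and 0.29 in ORL minus LE, and all 4 interactions were called (Mvd -0.78, Fdps -0.63, Idi1 -0.81 and Insig1 -0.72). Abca1 and Mvd were still called with the span covariate (3.10 and -0.60), whereas Fdps (-0.36), Idi1 (-0.27), Insig1 (-0.21) and Abcg1 (1.16) were not.

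**Figure D5:**
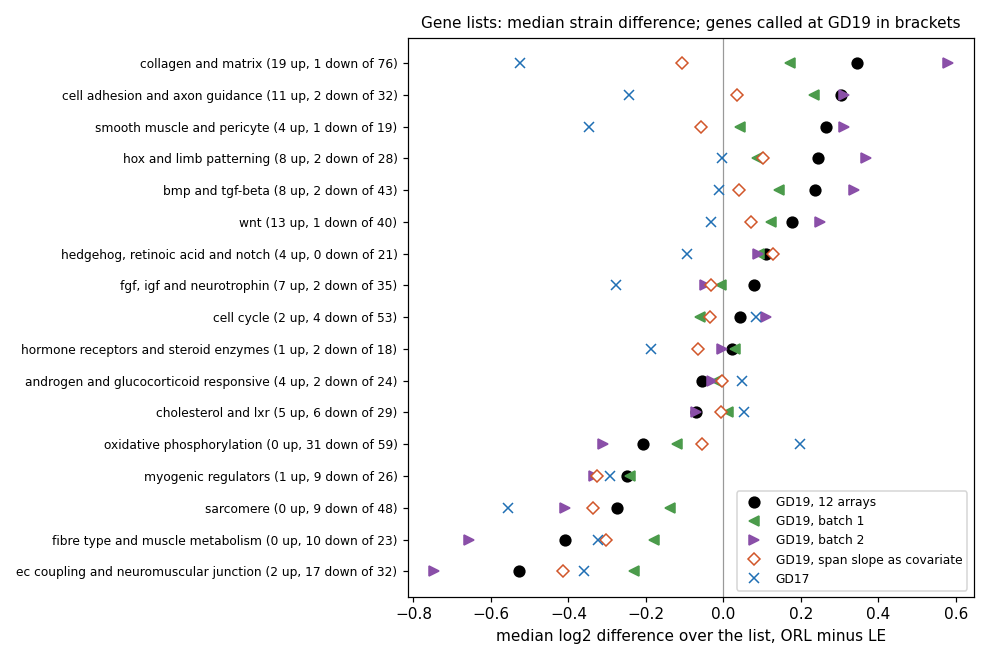
Median strain difference over each gene list (x axis, log2, ORL minus LE): all 12 GD19 arrays, batch 1, batch 2, the fit with the span slope as covariate, and GD17. Brackets give genes called higher and lower at GD19 of those tested. The 4 lists of striated muscle (coupling and junction, sarcomere, regulators, fibre type) lie below 0 in every version, while collagen and matrix turns from 0.34 to -0.11 with the covariate and lies at -0.53 at GD17.

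Matrix genes were higher in ORL in 19 of 76 tested cases (25%, against 9.14% of all genes) and lower in 1. The median was 0.34, against -0.53 at GD17. The interaction was called for 51 of the 76, all above 0 (12.6% of all genes). The median turned to -0.11 with the span covariate, and 4 were higher. Without any 1 of LE replicates 4 and 6 and ORL replicates 1 and 5, 11 were higher, and without LE replicates 4 and 6 together 7 were, with a median of 0.17. The list held genes of longer span than the whole (median 45.9 kb, against 24.4 kb over all genes). The part of the span slope in this list was not tested.

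Within it, osteoglycin, Ogn, a small proteoglycan of collagen fibrils, stood at 11.40, 11.62 and 11.77 in ORL and 9.71, 10.06 and 10.53 in LE (1.495 ± 0.17, adjusted p = 3.12e-06, and 1.31 at GD17). Of its 3 other probe sets 1 was called the same way and 1 the opposite way. Col8a2, a short-chain collagen, stood at 10.13, 10.48 and 10.72 in ORL and 8.90, 9.38 and 9.52 in LE (1.14 ± 0.14), and the protease Adamts9 at 9.37, 9.66 and 9.89 against 8.25, 8.71 and 9.004 (0.93 ± 0.14). These 3 did not overlap and kept their calls with the covariate (1.34, 1.05 and 0.69).

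Fibronectin, Fn1, and the cross-linking enzyme Loxl1 reversed between ages: 0.94 ± 0.19 and 0.43 ± 0.09 at GD19, -0.76 and -0.42 at GD17, with called interactions (1.70 and 0.86). With the covariate they lay at 0.24 and 0.30 and were not called. The single lower member was the microfibril protein Mfap5 (-2.19 ± 0.73, adjusted p = 0.0412), at 5.60, 7.38 and 8.78 in ORL and 8.77, 9.37 and 10.77 in LE. Its call was lost without any 1 of LE replicates 1, 2, 4 and 6 and ORL replicates 1, 4, 5 and 6, and without LE GD17 replicate 4 the list had 2 lower members.

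Guidance and adhesion genes followed the same course, with 11 of 32 higher (34.4%, against 9.14% of all genes) and 2 lower. The median was 0.30, against -0.24 at GD17. The ephrin receptor Epha3, which steers motor axons, stood at 10.07, 10.33 and 10.66 in ORL and 9.40, 9.46 and 10.11 in LE (0.76 ± 0.12). Sema6a, a membrane semaphorin, was higher by 1.13 ± 0.18, and Nrp2, a co-receptor for secreted semaphorins, by 0.80 ± 0.15, both without overlap. The lower members were Cntn3 and Cdh15, the cadherin of myoblasts (-0.40 ± 0.12, without overlap), which was named after its values were seen. Cdh15 was not called without LE replicate 6 (-0.37), ORL replicate 4 (-0.39) or ORL replicate 5 (-0.36). These genes are long (median 202 kb), the list median was 0.04 with the span covariate, and the part of the slope was not tested. Epha3 and Cntn3 kept their calls (0.62 and -3.08).

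Subunits of oxidative phosphorylation showed the reverse course. All 59 lay below 0 at GD19, 31 of them called lower (52.5%, against 9.82% of all genes) and 0 higher. The median was -0.21, against 0.20 at GD17, where 26 had been higher (16.8% of all genes). Atp5f1d, of the ATP synthase, stood at 12.83, 12.93 and 12.98 in ORL and 13.17, 13.23 and 13.36 in LE (-0.32 ± 0.06, adjusted p = 0.000643). Ndufs3, of complex I, was lower by -0.50 ± 0.11 without overlap, and Cyc1, of complex III, by -0.45 ± 0.09. These genes are short (median 7.64 kb). The median was -0.055 with the span covariate and 0 were called by limma (4 at an unadjusted p below 0.05), and without LE replicates 4 and 6 it was -0.15 with 8 called. Without 1 array the count was 17 (LE replicate 4), 14 (LE replicate 6) or 14 (ORL replicate 5), and the part of the span slope was not tested.

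Smooth muscle and pericyte genes were higher in 4 of 19 cases (21.1%, against 9.14% of all genes) and lower in 1 (5.26%, against 9.82%). Their median of 0.27 turned to -0.057 with the span covariate. Myosin light chain kinase, Mylk, stood at 9.74, 10.10 and 10.22 in ORL and 8.74, 9.36 and 9.52 in LE (0.78 ± 0.12), and the pericyte receptor Pdgfrb was higher by 0.44 ± 0.10, each without overlap. Calponin, Cnn1 (0.55 ± 0.12), and caldesmon, Cald1 (0.48 ± 0.11), were the other 2, and the small heat shock protein Hspb1 was lower (-0.51 ± 0.13). None of the 5 was called with the span covariate.

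Cell cycle genes showed no common shift: 2 of 53 were higher (3.77%, against 9.14% of all genes) and 4 lower (7.55%, against 9.82%). The median was 0.04. Thymidine kinase, Tk1, stood at 8.96, 9.03 and 9.20 in ORL and 9.34, 9.99 and 10.40 in LE (-0.90 ± 0.12, -1.003 at GD17), and kept its call with the covariate (-1.03). The replication factor Rfc3 (-0.39 ± 0.10), cyclin E, Ccne1 (-0.25 ± 0.06), and thymidylate synthase, Tyms (-0.41 ± 0.13), were lower, and the kinetochore protein Cenpf (0.82 ± 0.22) and cyclin D, Ccnd1 (0.40 ± 0.12), higher. Tyms was not called without any 1 of LE replicates 2, 4 and 5 and ORL replicates 1, 3 and 5, nor Ccnd1 without any 1 of LE replicates 4 and 6 and ORL replicates 1, 2 and 6. Another probe set of Tk1 was not called.

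Markers of other cell types that the organ pools could hold were set beside these results. For macrophages and leukocytes 0 of 17 tested markers were called (median 0.30, summed as a mean level of 6.12 to 7.72 in ORL and 5.96 to 7.14 in LE), with Cd68, Cd163, Itgam and Cd3e below 4 on all arrays. By limma 2 of the 17 had an unadjusted p below 0.05, and 14 lay above 0. The macrophage median was 0.031 without LE replicate 6 and 0.44 without ORL replicate 4, where 2 markers were called higher, as 2 were with the 3′ minus 5′ covariate. For erythroid cells 0 of 13 were called, and 0 had an unadjusted p below 0.05 (7.37 to 9.46 against 8.36 to 9.78), and for mesothelium 0 of 11, with 2 at an unadjusted p below 0.05. For endothelium Kdr alone of 17 (5.88%, against 9.14% of all genes) was higher (0.38 ± 0.11). It was not called without any 1 of LE replicates 4 and 6 and ORL replicates 4 and 5. For epithelium Sprr1a alone of 9 was lower (11.1%, against 9.82% of all genes), with Epcam and Krt5 below 4 on all arrays.

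Of 10 mast cell markers 2 were higher (20%, against 9.14% of all genes) and 1 lower (10%, against 9.82%). The median was 0.92 and the mean level 6.50 to 8.74 in ORL and 6.46 to 7.34 in LE. The factor Gata2, which endothelial and other cells also express, was higher by 0.78 ± 0.10 (7.91, 8.14 and 8.23 in ORL against 7.15, 7.32 and 7.58 in LE), and the protease Mcpt10 by 2.06 ± 0.70 (adjusted p = 0.0438, 5.87, 7.83 and 9.80 against 4.86, 5.73 and 7.39). Prostaglandin D synthase, Hpgds, was lower by -1.46 ± 0.29 without overlap. Kit, Fcer1a and Tpsb2 were below 4 on all arrays. Mcpt10 was not called without any 1 of LE replicates 2, 3, 4 and 6, ORL replicates 1, 2, 5 and 6 and ORL GD17 replicates 5, 6 and 7. The list count was 5 higher without ORL replicate 4 and 4 without LE GD17 replicate 4.

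Among markers of nerve and Schwann cells, 3 of 8 fell in ORL (37.5%, against 9.82% of all genes) and 0 rose. Members lay on both sides, 4 above 0 and 4 below, with a median of 0.0073 and a mean level of 8.28 to 8.75 in ORL and 8.22 to 9.29 in LE. The neurofilaments of large axons, Nefl and Nefm, stood at 6.16, 6.38 and 7.13 and at 5.43, 6.14 and 6.97 in ORL, and at 6.60, 8.06 and 9.06 and at 6.04, 8.16 and 8.73 in LE. Their differences were -1.27 ± 0.33 and -1.57 ± 0.41 (adjusted p = 0.0114 and 0.0111), -1.92 and -2.36 in batch 1 but -0.62 and -0.78 in batch 2, and -2.01 and -2.55 with the span covariate. Isl1, a factor of motor and sensory neurons as well as mesenchyme, was the third. Their part in the junction results was not tested.

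Of the 6 tested genes on the list of testis and duct markers, Zp2 and the gap junction protein Gja1 (0.45 ± 0.07) were higher and Rhox5 lower. These are 33.3% and 16.7%, against 9.14% and 9.82% of all genes. As Zp2 encodes a protein of the egg coat, these shares do not measure testis or duct tissue in the pools. Insl3, Star, Cyp17a1 and Nr5a1 were below 4 on all arrays. Of 7 tested fat markers 1 was lower (14.3%, against 9.82% of all genes) and 0 higher, with 3 above 0, 4 below and a median of -0.11. It was Fabp4, the lipid carrier of fat cells and capillaries (-1.17 ± 0.31, against 0.81 at GD17, interaction -1.98, adjusted p = 0.0031), which was not called with the span covariate (-0.57, adjusted p = 0.565). Thbs4, of tendon, was higher by 0.68 ± 0.22, as 1 of 7 tested cartilage, bone and tendon markers (14.3%, against 9.14% of all genes). It was not called without any 1 of LE replicates 2, 4 and 6 and ORL replicates 1, 5 and 6. The tendon, bone and cartilage list had LE replicate 6 at 7.07, above the other 11 arrays (5.40 to 6.26).

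Called genes were also looked up for neighbours among the tested genes, in the order of the RefSeq table of GRCr8. Of 9559 neighbouring pairs 355 had both genes called, 187 of them in the same direction, where 19% of all genes were called. Whether neighbours were called together more often than other genes was not tested. In 4 pairs both differed by at least 2-fold: Nefl with Nefm and Nts with Alx1, each in the same direction, and Sema3g (1.35 ± 0.45) with Phf7 (-1.07 ± 0.20) and Asxl3 (1.07 ± 0.22) with Dtna, each in opposite directions. Sema3g, Phf7 and Asxl3 were named after their values were seen, and Sema3g was not called without any 1 of LE replicates 4 and 6 and ORL replicates 1, 2, 5 and 6.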

How the data were processed

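RNA of the gubernaculum was labelled with biotin by a 3′ in vitro transcription kit and hybridized to Affymetrix rat arrays, per the labels' protocols. What the authors deposited are log2 intensities. Per the submitters' processing notes GCRMA was run under R 2.6.2. Its own version is not given in the sources used here, nor which arrays it normalized jointly. The table holds 31099 probe sets on 26 arrays. After 57 control probe sets were removed, 15746 probe sets were tested, those that reached 4 in 5 or more of 24 arrays of known strain.

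The deposited log2 values were fitted with limma 3.58.1 in R 4.3.3, with a mean for each of 4 groups of strain and age and the batch as a fixed effect (19 residual degrees of freedom). Two-sided p-values were adjusted by the Benjamini-Hochberg method across the tested probe sets (threshold 0.05), and the code was tested on simulated data. Of the tested probe sets 12535 name 1 gene, 305 several and 2906 none in the platform annotation. The probe set with the highest mean stands for a gene. Gene spans and promoters came from RefSeq tables of GRCr8.

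The arrays, gene lists and tests were chosen with earlier results of these data known, so the lists support no direction independently. Named were the genes with the largest differences of 1 sign in both batches, the smallest adjusted p at GD19 (also with GD17) and of the interaction, up to 6 called members of each list, and fixed genes of hormone reception, muscle and Hox clusters. This rule allowed 161 tested genes, of which 125 are in the text, a choice made with their values known. Lack of overlap in genes named this way follows in part from the choice. A further 8 genes with values, and 4 without, were named after their values were seen. Alternatives were other scalings, filters, variance models, batch terms, covariates and left-out arrays. Both unknown-strain arrays were left out.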

Additional observations from a re-analysis of the deposited data

Results flagged for a closer look

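Of 328 groups of 6 arrays that were looked at, 19 had 1 array whose distance from the nearest of the others passed Dixon's limit, and chance passes about 1 in 20 groups. LE replicate 1 stood apart in Ano3 (highest at 2.36) and in Fzd8 (lowest at 7.92). LE replicate 5 stood apart in Col25a1 (highest at 9.55), in Epha3 (highest at 10.11), in Pxmp4 (highest at 8.01) and in Ifi35 (lowest at 6.38). LE replicate 6 stood apart in Hoxa10 (lowest at 10.78). ORL replicate 1 stood apart in Vgll2 (lowest at 4.13). ORL replicate 3 stood apart in Fabp4 (highest at 8.65), in Fn1 (lowest at 12.32) and in Kif26b (lowest at 8.83). ORL replicate 4 stood apart in Cacng6 (lowest at 3.66), in Fkbp5 (lowest at 8.44), in Myl4 (lowest at 12.55) and in Sprr1a (lowest at 2.19). ORL replicate 5 stood apart in Boc (lowest at 9.35). LE replicate 6 was also the highest in the mean level of cartilage, bone and tendon markers (7.07). ORL replicate 4 had the highest 3′ minus 5′ difference of Gapdh (0.569) and the lowest position on the first principal component (-21.4).

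The strain difference changed between the ages, by limma's interaction term, for 57 of the genes named above, 35 upward from GD17 to GD19 and 22 downward (log2, GD19 minus GD17). The largest upward changes were in Asxl3 (1.88), Myh7 (1.80), Kif26b (1.78), Agrn (1.72), Fn1 (1.70), Prlr (1.68), Abca1 (1.66), Cenpf (1.60) and Itga1 (1.57). Further upward changes were in Masp1 (1.5), Ntrk2 (1.39), Wnt4 (1.28), Sfrp1 (1.24), Sostdc1 (1.23), Cntn3 (1.23), Myh3 (1.21), Gli2 (1.19) and Col25a1 (1.04). Smaller ones were in Asph (0.98), Pdgfrb (0.88), Loxl1 (0.86), Mylk (0.82), Adamts9 (0.74), Col8a2 (0.73), Tbx18 (0.71), Igf1 (0.68) and Kdr (0.68). The smallest upward changes were in Gata2 (0.66), Ano3 (0.65), Fzd1 (0.57), Cald1 (0.51), Epha3 (0.51), Boc (0.50), Fzd4 (0.48) and Gja1 (0.47). The largest downward changes were in Sprr1a (-2.25), Fabp4 (-1.98), Cela3b (-1.69), Rhox5 (-1.44), Nts (-1.41), Phf7 (-1.15), Tc2n (-0.98), Smpx (-0.90) and Idi1 (-0.81). Further downward changes were in Rnf34 (-0.79), Mvd (-0.78), Cacng6 (-0.76), Insig1 (-0.72), Ndufs3 (-0.71), Tyms (-0.67), Fdps (-0.63), Hsd17b10 (-0.62) and Rfc3 (-0.62). The smallest downward changes were in Cyc1 (-0.57), Ccne1 (-0.46), Acvr2a (-0.42) and Atp5f1d (-0.29). With the span slope as a covariate no interaction was called by limma. There 941 probe sets had an unadjusted p below 0.05, where 787 would be expected with no true difference. Without that covariate 50 of the 57 kept their call without any 1 array.

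On array a of unknown strain, which entered no comparison, Ano3 stood at 7.53, Zp2 at 7.09 and Pard6g at 9.26, above the highest LE array in each (2.36, 3.45 and 5.76).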

How the results depend on the processing

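Probe sets called at GD19 numbered 2890 (1621 higher, 1269 lower, 281 at least 2-fold), and 4106 had a called interaction. Batch 1 alone gave 370 (205 higher, 165 lower, 153 at least 2-fold, interaction 2), and batch 2 alone 910 (519, 391, interaction 1913). The span covariate gave 402 (218, 184, 160, interaction 0 by limma). Under it 941 had an unadjusted interaction p below 0.05, where 787 would be expected with no true difference. A threshold of 0.01 gave 1191 (685, 506, interaction 1887). Without LE replicates 4 and 6, an alternative added after seeing the data, it was 1088 (607, 481, 188 at least 2-fold, interaction 2662). Leaving out 1 array gave 1859 to 3263 called, 1028 to 1845 higher, 807 to 1428 lower, 229 to 345 at least 2-fold and 3207 to 4483 interactions. The other settings stayed within 1.5 times. Deviations of same-numbered replicates correlated by -0.25 to 0.51, and replicate 1 alone lay above 0.1. Taken around means of 3 arrays, these values cannot tell whether the numbers pair samples. The replicate block in place of batch gave 2587 (interaction 3213). Of 120 named genes called at GD19, 104 kept the call without any 1 array.

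Directions turned as follows, and the causes were not tested. In batch 1 alone Bmp3 was -0.060, Prlr 0.31, Hoxa11 -0.084 and the mesothelium median -0.037. With the span covariate Myh3 was -0.28, Myh7 -0.30, Hoxa11 -0.048, Hoxd10 -0.033, the smooth muscle median -0.057 and the matrix median -0.11, and interactions turned for Sprr1a (0.35), Asph (-0.013), Sfrp1 (-0.28), Cyc1 (0.030), Kdr (-0.070), Agrn (-0.098) and Cald1 (-0.12). Over the mean of a gene's probe sets Igfbp5 was 0.40 and Fkbp5 0.045. Without LE replicates 4 and 6 Hoxa11 was -0.078 and Hoxd10 -0.011. Without the 2 arrays nearest the other age (ORL replicate 4 and LE GD17 replicate 4) Fkbp5 was 0.018 and the fat median 0.067. The fat median was 0.053 with the 3′ minus 5′ covariate. Over the fits without 1 array Prlr ran from -0.24 to 0.018, Hoxa11 from -0.034 to 0.079, Fkbp5 from -0.058 to 0.022 and the fat median from -0.20 to 0.073. List medians within 0.1 of 0 have no settled direction. At the far end of their alternatives they turned to -0.048 for growth factors, -0.065 for hormone receptors, 0.0077 for androgen and glucocorticoid genes, 0.012 for cholesterol, -0.059 for cell cycle, 0.16 for erythroid, -0.22 for nerve and -0.195 for epithelium. Signal over background limits the genes below 4, and 6 arrays per group limit the precision of all.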

Other observations

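The 2 GD19 arrays of unknown strain, which the submitters annotated so after their data clustered with the other strain than planned, are given as values only. Array a stood at 7.53 in Ano3, 7.09 in Zp2, 9.26 in Pard6g and 2.47 in Cntn3. Array b stood at 2.22 in Ano3, 2.38 in Zp2, 5.50 in Pard6g and 5.20 in Cntn3. In Pxmp4 array a stood at 5.65 and array b at 5.02, both within the ORL range of 4.92 to 5.67. In Dtna array a stood at 5.33, within the ORL range, and array b at 6.26, between the ranges of the strains. For Chrna1 the values were 9.01 on array a and 10.21 on array b, and for Chrng 6.86 and 8.11.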
